A study of Pimephales promelas with 191 samples.

Results

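The 100 most abundant transcripts in the liver of the male fathead minnow, Pimephales promelas, a North American fish much used in toxicity tests, were taken as a set and followed through a 96 h exposure. For each library, counts were divided by the library's total and scaled to a total of 1000000, which gives counts in CPM. The 100 genes of highest median CPM over all libraries, out of 26150 genes in the table, are the members. They are ranked from 1, the highest median, to 100. The members were thus selected on the median CPM of each gene, so their high level is a description and no finding. All fish were adult males and all libraries were made from liver. Control fish, fish given metformin at 41 µg/L, fish given guanylurea at 100 µg/L, and fish given a mixture of the 2 compounds at 41 and 100 µg/L were collected after 6, 24, 48 and 96 h. There were 12 libraries in each of these 16 groups, save for 11 with guanylurea at 24 h. Metformin is a biguanide drug against diabetes, and guanylurea is what microbes make of it in sewage and surface water. The labels give no batch, tank or date, and leave unsaid whether each library is a fish of its own. A p-value here therefore speaks of the spread between samples, part of which may be technical.

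Hepatocytes secrete most of the proteins of blood plasma, such as apolipoproteins, transferrin, fibrinogen and complement factors. In liver a small number of messenger RNAs for these proteins, together with those for ribosomal and mitochondrial proteins, commonly fills a large part of the messenger pool. Which of the members are such genes could not be read here. The identifiers in the files begin with FMg and carry no names, and 0 of the 100 members matched the 64593 genes of the RefSeq table of the species (assembly fPimPro1.hap1.1). Members are therefore called by rank, no sequence is shown, and the label liver could not be checked against marker genes. Gene lengths were not used here, so a rank is one of read counts, not of molecules per cell. In whole liver, fewer cells of a type and less RNA per cell cannot be told apart.

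Libraries held between 12663443 and 27969948 counts, with a median of 19541432. At this depth counting error was small for the members: the smallest median count of a member was 22088, and the lowest count of any member in any library was 277. All 100 passed the filter on low counts, beside 18145 of all genes. In 62 of the 100, 1 transcript had the same count as the gene in every library, in 18 the nearest transcript differed by up to 1% of the total, and in 20 by more. Near-identical gene copies may share reads by estimate in these counts and are not known for these identifiers. Agreement with the rest of their group was low in 9 libraries, namely control 6 h library 3, control 48 h library 12, control 96 h libraries 2 and 4, metformin 24 h library 3, metformin 48 h libraries 1 and 8, mixture 24 h library 4 and mixture 96 h library 3. Results that change without them are given both ways.

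The members together held more than 1 in every 2 counts. Their share was 55.0% ± 3.97 (SD over all libraries), with a lowest value of 40.3%, a median of 55.4% and a highest of 63.5%. The share was steep at its top. The gene of rank 1 alone held a median of 7.43% of counts, the first 10 held 29.1%, the first 20 held 37.3% and the first 50 held 47.2%. Going on to 200 genes brought the median share to 64.2%, and 1000 genes brought it to 82.1%. Most of the difference between libraries lay in the first 10 genes, whose share was 29.2% ± 4.08 (SD over all libraries), while ranks 11 to 100 held 25.9% ± 1.06 (SD over all libraries). As a part of the variance of the share, rank 1 contributed 29.6%, rank 2 contributed 22.7%, rank 3 contributed 17.6% and rank 6 contributed 11.8%.

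The low end of the share was set by single libraries in different groups. The lowest, at 40.3%, was mixture 96 h library 3, in which rank 1 fell to 1.63% of counts and the first 10 genes to 14.3%. It was followed by guanylurea 96 h library 6 at 43.0%, control 6 h library 3 at 43.7% and metformin 96 h library 5 at 45.2%. The highest share, 63.5%, was in control 24 h library 3. Between libraries of a group, the share was higher where the total count was higher (Pearson r = 0.21, Spearman rho = 0.20, all libraries, permutation within groups, adjusted p = 0.00445 and 0.0124). It was lower where more genes had a count (r = -0.26, rho = -0.31, adjusted p = 0.0013 and 0.00018). Without the 2 libraries farthest from the median of the measure, the values of r were 0.19 and -0.23. One more relation, with agreement within the group, gave r = 0.27 (adjusted p = 0.0013) but rho = 0.11 (adjusted p = 0.134), and p-values were adjusted over these 3 relations. The part of depth in the results that follow was not tested.

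With treatments averaged, time did not move the share beyond the spread between libraries, nor did treatment with times averaged. Treatments at a single time were not tested for the share. Group means ran from 53.2% ± 5.16 (SD, n = 12) in guanylurea at 96 h to 57.6% ± 2.97 (SD, n = 12) in the mixture at 48 h, and all groups overlapped. Averaged over times, the share differed from control by -1.25 percentage points for guanylurea, -0.36 for metformin and 0.28 for the mixture. The doses differ between the compounds, and the 3 differences use the same control libraries. Between 6 and 96 h the mean share moved by 0.47 points, treatments averaged. In 2-sided permutation tests, 6 in all, the raw p was 0.145 for guanylurea, 0.595 for 96 against 6 h, 0.48 over the 4 times and 0.26 over the 4 treatments, and every adjusted p was 0.737. Without the 9 libraries of low agreement, the guanylurea difference was -1.64 points with a raw p of 0.0563 and an adjusted p of 0.241.

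**Figure D1:**
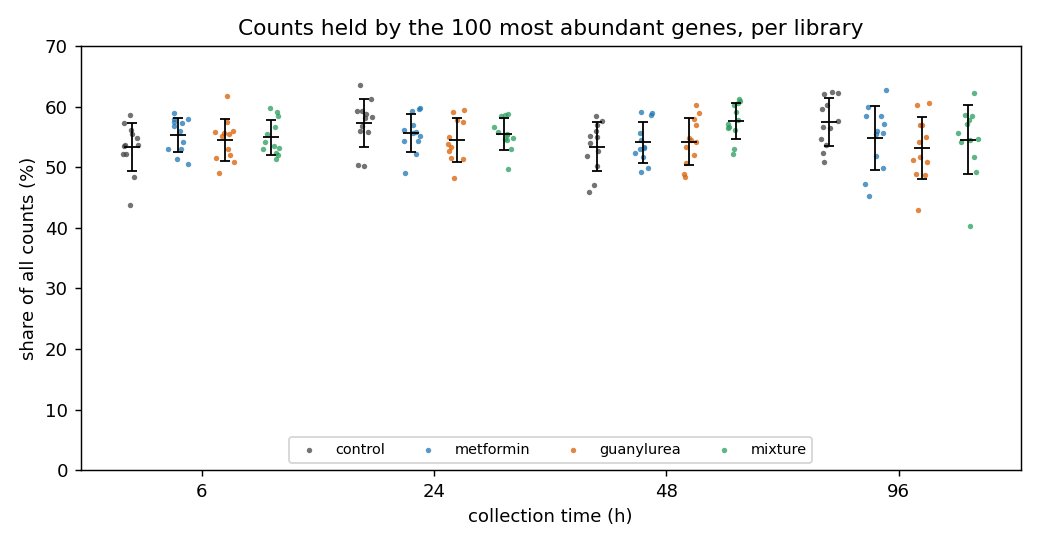
Share of all counts held by the 100 most abundant genes (y axis, percent, from 0) in each library, by collection time in hours (x axis) and treatment (colour); black marks and bars are the mean and SD of each group. Groups overlap throughout, and the lowest points, down to 40.3%, are single libraries.

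The same gene led in most libraries. Rank 1 was the most abundant gene in 171 libraries. Rank 2 led in 16 libraries, rank 4 in 2, and ranks 5 and 6 in 1 each, so 5 genes ever led. The level of rank 1 ran from 15112 CPM in control 6 h library 3, over a median of 74298, to 125490 in mixture 6 h library 6. Its group medians in controls were 79082, 80849, 74057 and 84410 CPM at 6, 24, 48 and 96 h. In the same order of times they were 69263, 70985, 70230 and 61628 with guanylurea. Fish given metformin had 71979, 77139, 71606 and 61008 CPM, and those given the mixture had 75563, 81089, 81876 and 71379. The control median was thus the highest of the 4 at 6 and 96 h and second to the mixture at the other times, with overlap in every case.

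Further down the list, group medians were lower. Group medians of rank 2 ran from 38816 CPM (control, 6 h) to 59923 (control, 96 h), and those of rank 3 from 34658 (metformin, 96 h) to 44567 (control, 96 h). For rank 4 they ran from 23939 (metformin, 96 h) to 42134 (mixture, 6 h), and for rank 5 from 20809 (control, 96 h) to 26235 (control, 6 h). Rank 6 had a wider range, from 19266 (guanylurea, 6 h) to 35096 (control, 96 h), and in controls at 96 h it thus stood above rank 5. In ranks 7 to 10 the ranges were 13121 to 17619, 10190 to 12728, 10089 to 12598 and 9262 to 12996 CPM. Rank 9 and rank 3 carry consecutive identifiers, as do rank 70 and rank 9, and their levels moved together between libraries (r = 0.57 and 0.48). These are the highest of 6 such pairs of members, over which r had a median of 0.13 and ran from -0.34 to 0.57.

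The border of the set was a gradual one. Ranks 96 to 100 had medians of 1185, 1183, 1172, 1163 and 1160 CPM, and the next 5 genes, just outside, had 1157, 1154, 1143, 1143 and 1141. Only 38 members were among the first 100 in every library, 63 were there in at least 90% of libraries, and 296 different genes reached the first 100 in some library. A library's own first 100 held between 57 and 95 of the members, with a median of 88. The fewest were in metformin 24 h library 3 (57) and mixture 96 h library 3 (66), both of low agreement. No gene outside the set was among the first 100 in more than 93 libraries.

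**Figure D2:**
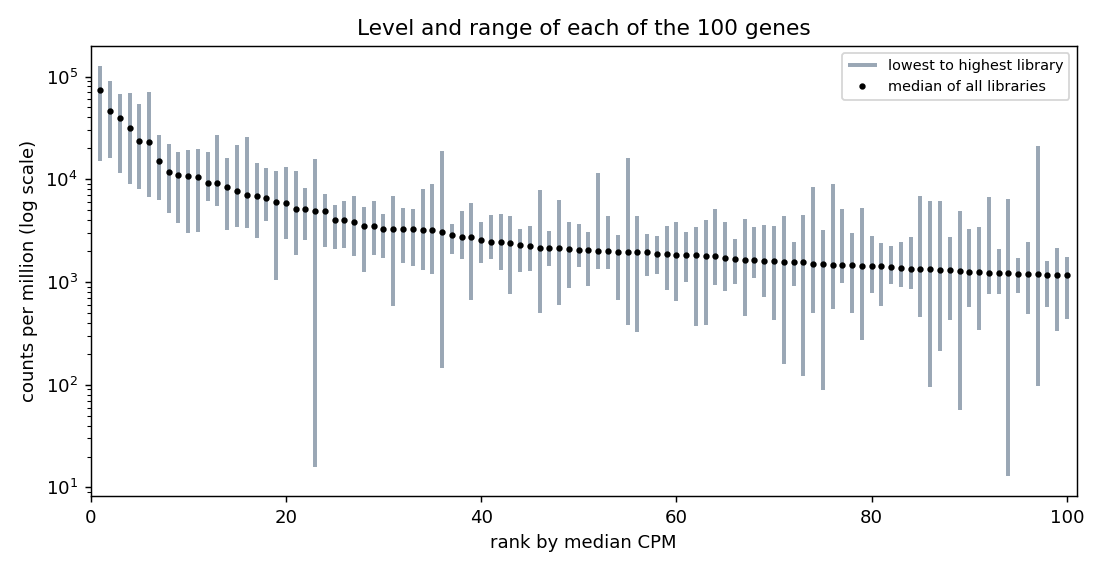
Level of each of the 100 genes in CPM (y axis, log scale) by rank (x axis); dots are medians over all libraries and bars run from the lowest to the highest library. Most bars span less than 10-fold, and a few, such as ranks 23, 36, 94 and 97, span more than 100-fold.

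Members differed widely in how much they varied. The coefficient of variation of CPM between libraries of a group, pooled over the 16 groups, had a median of 24.7% over the members (quartiles 17.5% and 32.8%). It was 23.8% in the next 100 genes and 41.3% over all tested genes, most of which have far lower counts. From lowest to highest library the median member varied 5.15-fold, while 21 members varied less than 3-fold and 23 more than 10-fold. The steadiest was rank 37, with a coefficient of 11.03% and levels from 1862 CPM, over a median of 2888, to 3647. Rank 57 followed with 11.9% and rank 47 with 12.7%.

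The 3 most variable members were ranks 97, 36 and 94. Rank 97 had a coefficient of 95.7% and ran from 96.3 CPM, over a median of 1183, to 20861. It stood above 3 times its median in 16 libraries, spread over 11 groups, and below 10% of it in 1. Rank 36 had a coefficient of 92.1%, with levels from 144 over 3069 to 18945 CPM. It stood above 3 times its median in 23 libraries of 13 groups and below 10% of it in 8, 7 of which were collected at 96 h. Of these 8, 3 were controls and 5 had metformin. Rank 94 had a coefficient of 68.1% and ran from 12.99 over 1223 to 6393 CPM. It stood above 3 times its median in 6 libraries of 3 groups, 5 of them at 24 h, and below 10% of it in 7 libraries of 4 groups.

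The widest range of all belonged to rank 23, chosen here after its values were seen. It ran from 15.6 CPM in control 96 h library 1, over a median of 4945, to 15846 in control 48 h library 6, a 1013-fold range. In 18 libraries, spread over 10 groups, it was below 10% of its median. Of these 18, 7 were controls, 6 had metformin, 1 had guanylurea and 4 had the mixture, and they fell at every collection time (5, 3, 4 and 6 libraries at 6, 24, 48 and 96 h). The lower quartile was 3162 CPM and the upper one 6769.

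Time accounted for more of the variance of the members than treatment did. Of the variance of a member's log2 CPM, the median part between the 4 times was 4.92%, against 2.07% between the 4 treatments and 12.8% between all 16 groups. In the next 100 genes by rank these medians were 6.73%, 1.57% and 15.3%. For all tested genes they were 3.33%, 1.68% and 11.04%, and degrees of freedom alone give 1.58%, 1.58% and 7.89%. Rank 27 had the largest part by time among the members, 25.4%, and rank 61 the largest by treatment, 11.9%. The remainder, most of the variance for every member, lay between libraries of the same group.

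Many of the members fell into blocks that rose and fell together between libraries, and so did many of the next 100 genes by rank. Pearson correlations of log2 CPM, after the mean of each group was removed, had a median of 0.02 over the 4950 pairs (quartiles -0.19 and 0.24). Above 0.5 were 367 pairs, and below -0.5 were 154. Over the next 100 genes by rank the median was 0.07, with 811 pairs above 0.5 and 48 below -0.5. All correlations are over the same libraries, whose values share a depth and a total, and they describe without a test. Since the members hold most of the total, a rise in some lowers the CPM of the rest. Libraries were also scaled by TMM, a method that sets the bulk of genes level, computed without the members. The median was then 0.25 and 1024 pairs stood above 0.5, beside 0.27 and 1114 in the next 100 genes.

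Average linkage at r = 0.5 gave 9 clusters of 3 or more genes, which held 61 members. The next 100 genes gave 4, which held 57 genes, with 44 in the largest. With TMM computed without the members there were again 9 clusters of members, but they held 80 members. The largest then had 27 and 24 genes, so the clusters described here are those of CPM. The first had 15 genes, 11 of them from ranks 51 to 100, with a median r of 0.70 within it. Its sum was highest in metformin 24 h library 3, where it held 8.30% of counts against a median of 3.43%, followed by control 6 h library 3 and metformin 48 h library 1. All 3 are libraries of low agreement. The 3 strongest pairs were in it: ranks 50 and 95 (r = 0.91), 52 and 77 (r = 0.90) and 50 and 68 (r = 0.90). Without the libraries of low agreement, the largest clusters had 12 and 11 genes, against 15 and 9, and the median r over all pairs was 0.02.

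Clusters 2 and 3, of 9 genes each, moved against each other. Cluster 2 held ranks 2, 7, 39, 46, 48, 54, 59, 70 and 71 and took a median of 7.67% of counts, from 2.65% to 12.9%. Cluster 3 held ranks 23, 36, 67, 73, 75, 78, 87, 89 and 99 and took a median of 1.84%, from 0.329% to 5.57%. The median r between their genes was -0.53, and -0.44 with the scaling that left the members out. Clusters 1 and 2 stood at -0.28 on CPM and at 0.29 with that scaling. The 3 lowest pairs joined clusters 2 and 3: ranks 7 and 87 (r = -0.74), 2 and 36 (r = -0.73) and 7 and 36 (r = -0.72). Rank 23, which had the widest range, stood at r = -0.50 with rank 2, the second most abundant gene. The members of highest mean correlation with the others were ranks 47, 45, 44, 96 and 26, at only 0.12, 0.11, 0.10, 0.10 and 0.10.

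**Figure D3:**
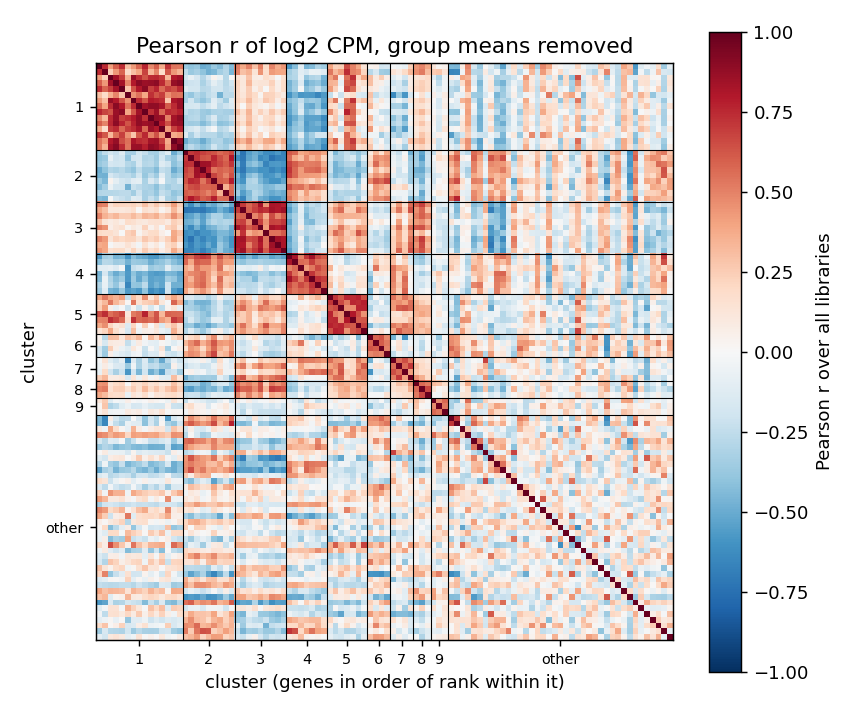
Pearson correlation (colour, -1 to 1) between each pair of the 100 genes over all libraries, log2 CPM with group means removed; genes are ordered by cluster on both axes and black lines mark the clusters. Cluster 1 is the solid block of 15 genes at the top left, and clusters 2 and 3 show the blue block between them, at a median r of -0.53.

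Many of the members differed between collection times, mostly by small amounts, and so did many of all genes tested. Genes were tested by the quasi-likelihood method of edgeR, p-values were adjusted after Benjamini and Hochberg over the 18145 genes of the fit, and one is said to change at an adjusted p under 0.05. Over the 4 times, with treatments averaged, 44 of the 100 members changed, beside 35.6% of all genes. Between 6 and 96 h, 36 members changed, beside 29.3%. In the next 100 genes by rank these counts were 57 and 52, in the same order. Of the 36 members, 11 rose, beside 15% of all genes, and 25 fell, beside 14.3%. The median size of a change was 0.29 on the log2 scale, a 1.22-fold difference, and 2 members changed by 2-fold or more. The median over all 100 members was -0.05, and over all tested genes 0.03. In 32 of the 36 the 4 treatments, each against its own 6 h libraries, all moved in the direction of the average, and in the other 4 members 3 of the 4 treatments did. The 36 were selected on the average of these same 4 values, so this agreement is no separate support.

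The members that fell sat mostly beyond rank 50. In ranks 1 to 50, 7 rose and 5 fell, and in ranks 51 to 100, 4 rose and 20 fell. In the next 100 genes by rank, 2 rose and 50 fell. At 24 h, 10 members differed from 6 h, beside 7.15% of all genes. Of these 3 were higher and 7 lower, beside 2.58% and 4.57%. At 48 h, 15 members differed from 6 h, beside 13.6%. Of these 1 was higher and 14 lower, beside 6.19% and 7.36%. Of the 44 members that changed at any time, the largest step lay between 48 and 96 h in 25, between 6 and 24 h in 10 and between 24 and 48 h in 9. Only 13 of the 44 moved one way at every step. Of the 44, 13 did not pass between 6 and 96 h. Ranks 55, 64 and 69, which form cluster 9 and were noted after their values were seen, fell and then rose. Their log2 changes were -0.79, -0.47 and -0.52 between 6 and 48 h. Between 48 and 96 h they were 0.75, 0.47 and 0.29. The steps differ in length, the last being the longest, and no such counts over all genes are given here. The labels give no hour of day and no sampling occasion for the 4 times, so the length of exposure cannot be told apart from these.

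**Figure D4:**
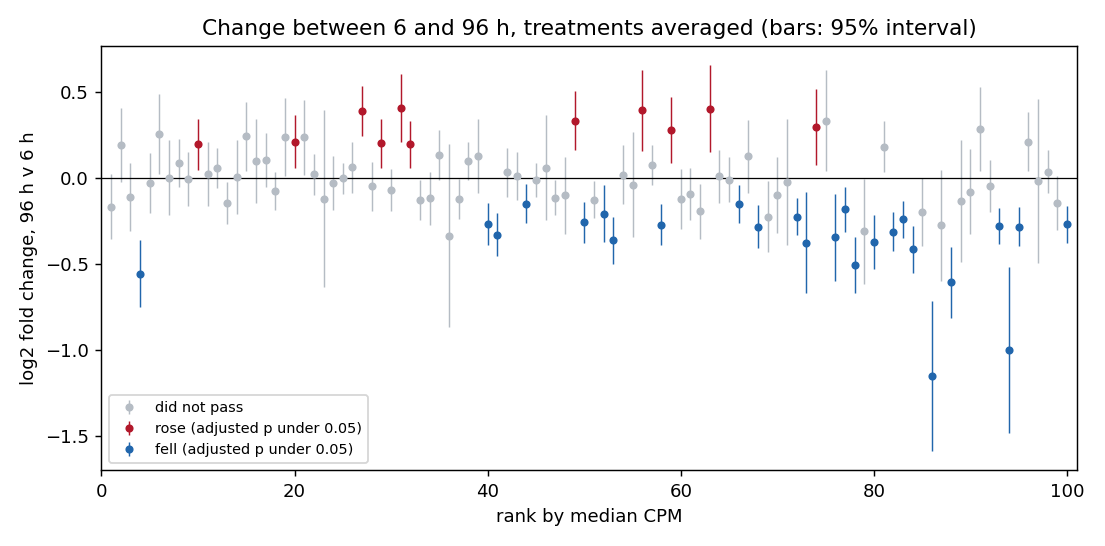
Log2 fold change of each of the 100 genes between 6 and 96 h, treatments averaged (y axis), by rank (x axis); bars are 95% intervals, red genes rose, blue genes fell and grey genes did not pass. The blue genes lie mostly beyond rank 50, and ranks 86 and 94 lie lowest.

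The 2 members of smallest p in each direction are described first. FMg011123, of rank 27, rose from 6 h. Its levels at 6 h ran from 1877 CPM, over a median of 3155, to 5596. The medians were then 3732, 4459 and 4065 CPM at 24, 48 and 96 h, and at 96 h the range was 1801 to 6801. In 45 of the 48 libraries at 96 h it stood above the 6 h median of its own treatment, though the ranges overlapped. The fold change at 96 h was 1.31 (log2 change 0.39, 95% interval 0.24 to 0.53, adjusted p = 1.11e-05, edgeR).

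FMg017871, of rank 31, had medians of 3020, 3104 and 3134 CPM at 6, 24 and 48 h and 4144 at 96 h, so its rise lay in the last step. The range was 1027 to 5517 CPM at 6 h and 2668 to 6895 at 96 h, and 40 of 48 libraries stood above their own 6 h median. The log2 change was 0.40 (95% interval 0.21 to 0.60, adjusted p = 0.00071, edgeR).

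FMg002046, of rank 78, fell early. Its medians were 1784, 1531, 1155 and 1346 CPM at the 4 times, with ranges of 813 to 2746 at 6 h and 571 to 3026 at 96 h. At 96 h, 35 of 48 libraries were at or below their own 6 h median, and in controls all 12 were. The log2 change was -0.50 (95% interval -0.67 to -0.34, adjusted p = 3.32e-07, edgeR).

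FMg012187, of rank 84, belongs to the first cluster and fell mostly after 48 h. Its medians were 1442, 1354, 1378 and 1181 CPM, with ranges of 983 to 2589 at 6 h and 862 to 1586 at 96 h. At 96 h, 45 of 48 libraries were at or below their own 6 h median. The log2 change was -0.41 (95% interval -0.55 to -0.28, adjusted p = 3.79e-07, edgeR).

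**Figure D5:**
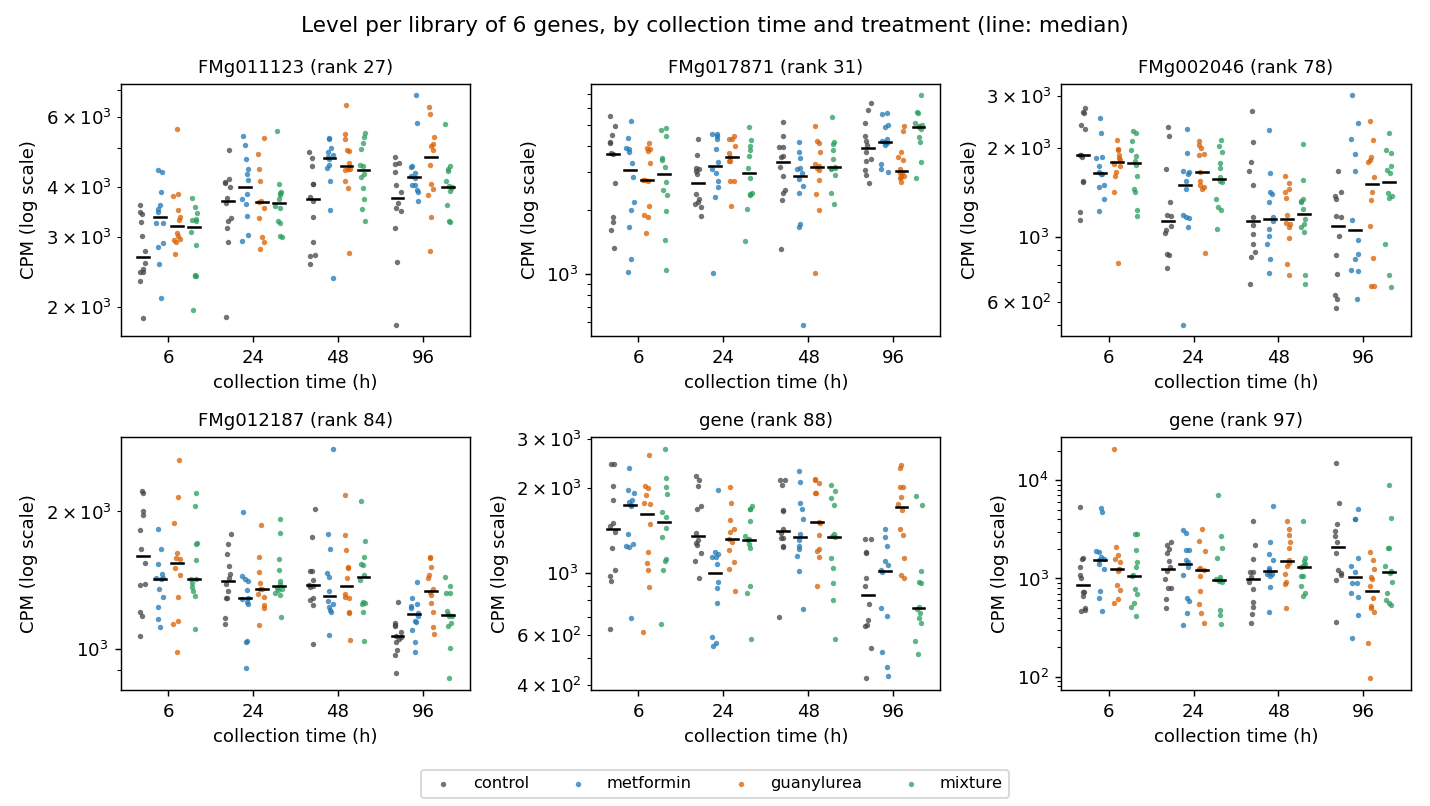
Level in CPM (y axis, log scale) of 6 of the genes in each of the libraries, by collection time in hours (x axis) and treatment (colour); lines are group medians. FMg011123 and FMg017871 were higher at 96 h than at 6 h, FMg002046 and FMg012187 were lower, rank 88 was low at 96 h in every treatment but guanylurea, and rank 97 has single libraries far above the rest.

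Among the other members that fell, rank 4, the only one of the first 10, is the largest by counts. Its medians were 35516, 31758, 31128 and 26582 CPM at 6, 24, 48 and 96 h, and 43 of 48 libraries at 96 h were at or below their own 6 h median. The log2 change was -0.56 (95% interval -0.75 to -0.36, adjusted p = 1.94e-06, edgeR). Rank 82 fell by 0.31 on the log2 scale, again in the first cluster. Next to FMg011123 and FMg017871, the members that rose with the smallest p were ranks 49, 56 and 63, by 0.33, 0.39 and 0.40. With the control fish left out of the average, these 3 no longer passed (adjusted p = 0.162, 0.119 and 0.201, edgeR), while rank 4, rank 82 and the 4 members above did. Rank 10 was the only one of the first 10 to rise, by 0.19 (adjusted p = 0.0395, edgeR). It did not pass with the control fish left out of the average (adjusted p = 0.0631, edgeR), nor with guanylurea (0.0972) or the mixture (0.249) left out.

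The 2 changes of 2-fold or more, noted after their values were seen, were in members that also varied widely within groups. Rank 86 had medians of 2142, 1482, 990 and 819 CPM at the 4 times, over ranges of 155 to 6153 at 6 h and 155 to 3199 at 96 h. Its log2 change was -1.15 (95% interval -1.58 to -0.71, adjusted p = 1.18e-05, edgeR). Rank 94 had medians of 1568, 1387, 1302 and 846 CPM and a log2 change of -1.0 (95% interval -1.48 to -0.52, adjusted p = 0.000615, edgeR). Of the 7 libraries in which rank 94 stood below 10% of its overall median, 5 were collected at 96 h and 2 at 48 h.

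Clusters made from the scatter within groups, which used no difference between times, differed in how their genes moved with time. In cluster 1, 12 of 15 genes fell between 6 and 96 h and none rose, with a median of -0.27 on the log2 scale. Over the other scalings, filters, tools and left-out libraries, between 10 and 13 of its genes fell. When the libraries of low agreement were left out, 1 rose. Most of cluster 1 lies in ranks 51 to 100, where 20 of 50 genes fell and 4 rose, counts that include the cluster's own genes. Of the 39 members outside clusters of 3 or more genes, 7 fell and 4 rose. In the next 100 genes by rank 50 fell and 2 rose, and of all genes 14.3% fell and 15% rose. Falls were thus also found outside the cluster, at a lower share than within it. In cluster 4, which holds ranks 6, 21, 30, 32, 49, 63 and 81, 3 of 7 rose and none fell, with a median of 0.23. Without the control fish none rose and the median was 0.08, while without the guanylurea fish 6 rose and the median was 0.40. With metformin left out 3 rose, and with the mixture left out 2 rose, at medians of 0.26 and 0.25. In cluster 2, 1 of 9 genes rose, and without the control fish none did, the median moving from 0.02 to -0.13. In cluster 3, 2 of 9 fell with a median of -0.15, and without the control fish 1 fell, 1 rose and the median was 0.04. Genes of a cluster share libraries and are not independent of each other.

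Ranks 31 and 88 carry consecutive identifiers and moved in opposite directions, both between libraries (r = -0.34) and, treatments averaged, with time. Rank 88 had medians of 1497, 1263, 1375 and 998 CPM at 6, 24, 48 and 96 h, and a log2 change of -0.61 at 96 h (95% interval -0.81 to -0.40, adjusted p = 1.11e-06, edgeR). With guanylurea, ranks 31 and 88 changed by only 0.10 and 0.005 between 6 and 96 h. The changes were 0.42 and -0.67 in controls, 0.47 and -0.91 with metformin, and 0.63 and -0.85 with the mixture. The sum of the 2 genes varied less than either. Its coefficient of variation was 20.3%, against 32.0% for rank 31 and 33.8% for rank 88. A lower value follows from levels that move against each other, so it is no separate result. Rank 88 made up a median of 31.2% of the sum at 6 h and of 22.05% at 96 h. By treatment, the part at 96 h was 20.5% in controls and 32.3% in fish given guanylurea. In fish given metformin it was 18.96%, and with both compounds 14.01%. Whether reads were divided between similar copies here was not tested.

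Each treatment was also tested on its own between 6 and 96 h in the fit of all libraries. In controls 20 members changed, beside 9.89% of all genes, with 14 up, beside 4.24%, and 6 down, beside 5.65%. With the mixture 10 changed, beside 7.19%, with 1 up, beside 3.42%, and 9 down, beside 3.78%. With metformin 3 changed, beside 4.39%, and all 3 fell, beside 2.62%. With guanylurea 1 changed, beside 1.92%, and it fell, beside 1.12%. These counts are of separate tests, and only the F test on all treatments and times, given further on, compares them. FMg002046 changed by -0.83 in controls, -0.47 under metformin, -0.39 under guanylurea and -0.33 in the mixture, and only the first of these passed (adjusted p = 0.000172, edgeR). FMg011123 changed by 0.53, 0.32, 0.31 and 0.39 in the same order, and again only the control value passed (adjusted p = 0.01, edgeR).

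In a fit of the 48 control libraries alone, 17 members changed between 6 and 96 h, beside 6.84% of 16322 genes. Of these 13 rose, beside 2.73%, and 4 fell, beside 4.11%. The rising members of smallest p were ranks 21, 49, 6, 32 and 39, by 0.87, 0.77, 0.92, 0.54 and 0.72 on the log2 scale. Ranks 21, 49, 6 and 32 belong to cluster 4 and are not independent of each other, and rank 39 belongs to cluster 2. For rank 6, the control medians were 19407, 24613, 21760 and 35096 CPM in order of time (adjusted p = 0.00696, edgeR). The 4 that fell were ranks 78, 84, 88 and 82, by 0.82, 0.49, 0.66 and 0.38. Without the 96 h control libraries 2 and 4, which agree least with their group, 11 members changed, and without all libraries of low agreement 9 did. The 5 rising members named here passed in both, and ranks 78 and 88 did as well. Rank 88 did not pass with limma voom or with the replicate block named below.

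Averaged over the 4 times, almost none of the members differed between exposed and control fish. With guanylurea 1 of 100 changed, beside 1.3% of all genes, and it was lower, beside 1.06%. With metformin 0 members passed, beside 0.0882%, and with the mixture 0, beside 0.0386%, both in edgeR, and DESeq2 and limma voom also gave 0. An unadjusted p under 0.05 in edgeR was found for 17 members with guanylurea, for 8 with metformin and for 3 in the mixture. Of all 18145 genes tested, 2405, 1984 and 1127 had one, in the same order. The median of the members was -0.06 with guanylurea, -0.04 with metformin and -0.01 with the mixture, and that of all genes -0.01 in each. The 95% interval of a member reached a median of 0.16 on the log2 scale to either side in each comparison. For the most abundant gene the difference from control was -0.27 with guanylurea (95% interval -0.46 to -0.08, adjusted p = 0.157), -0.16 with metformin (-0.35 to 0.03, adjusted p = 0.555) and -0.03 with the mixture (-0.22 to 0.16, adjusted p = 0.998), all in edgeR. The 3 comparisons share their controls.

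The member that was lower with guanylurea was rank 61. Its medians with guanylurea were 1674, 1594, 1704 and 1788 CPM at 6, 24, 48 and 96 h, against 1922, 2080, 1822 and 1894 in controls. All libraries of the 6 h and 24 h groups (12 of 12 and 11 of 11) lay below the median of same-time controls. At the later times 10 of 12 and 7 of 12 did, in order. The ranges overlapped at every time. At 24 h it ran from 1198 to 1956 CPM with guanylurea and from 1410 to 2572 in controls. The log2 difference was -0.33 (95% interval -0.48 to -0.18, adjusted p = 0.00827, edgeR). With 24 h left out of the average it was -0.26, with an adjusted p of 0.14. The same gene stood at -0.09 (95% interval -0.24 to 0.06) with metformin and at -0.07 (-0.23 to 0.08) with the mixture, which holds the same amount of guanylurea. Neither of these passed.

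At single times, 7 of 100 members passed against control with guanylurea at 96 h, beside 4.7% of all genes. Of these 1 was higher, beside 1.47%, and 6 were lower, beside 3.23%. In the other 11 comparisons of a treatment with its same-time control 0 members passed in edgeR, and whether the comparisons differ is addressed by the F test given further on. Of all genes, 0.0606%, 0.0386%, 0.0331% and 0.716% passed with metformin at the 4 times in order, and 0.0331%, 0.011%, 0.127% and 1.82% with the mixture. Guanylurea gave 0.0716%, 0.242% and 0.397% at 6, 24 and 48 h. In the mixture at 48 h, where 0 passed beside 0.127% of all genes, 86% of the members lay above control, beside 44.9% of all genes. The members' median was 0.24 on the log2 scale, beside -0.03 over all genes. Control 48 h library 12, of low agreement, is among the controls used, and no value without it is given here. An unadjusted p under 0.05 was found for 27 members, beside 1488 of the 18145 genes. In guanylurea at 24 h, where 0 passed beside 0.242%, 14% of the members lay above control, beside 50.3% of all genes. The members' median was -0.21, and 19 of them had an unadjusted p under 0.05, beside 1388 of all genes. At the same 24 h, 16% of the members lay above control in the mixture, with a median of -0.15. With metformin 24% did, with a median of -0.12. Of all genes, 52.1% and 53.1% lay above control, in the same order. These 3 comparisons use the same 24 h control libraries. Members co-vary between libraries and are not independent of each other, so the parts of them above control, at 24 and 48 h, describe and are no test. The members' share is summed from the same counts, so the direction of its group means is no separate support. Controls had 57.3% at 24 h and guanylurea 54.5%, while at 48 h controls had 53.4% and the mixture 57.6%. At an unadjusted p under 0.05 there were between 1 and 27 members in these 11 comparisons, beside between 581 and 2041 of all genes.

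With guanylurea at 96 h, the 6 lower members were ranks 97, 21, 6, 17, 49 and 46, and the higher one was rank 88. Ranks 21, 6 and 49 belong to cluster 4 and are not independent of each other. Rank 6 had a control median of 35096 CPM (19051 to 48020) and a guanylurea median of 19896 (8831 to 39990), and 11 of 12 exposed libraries lay below the control median. Its log2 difference was -0.86 (95% interval -1.32 to -0.40, adjusted p = 0.0145, edgeR). Rank 46 had a control median of 3485 CPM (1638 to 5366) and a guanylurea median of 1511 (620 to 3097), with 12 of 12 below the control median. Rank 88 had a control median of 835 CPM (422 to 1321) and a guanylurea median of 1715 (960 to 2419), with 12 of 12 above the control median. Its difference was 0.74 (95% interval 0.32 to 1.15, adjusted p = 0.02, edgeR).

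Of these 7, the control libraries of 96 h decide most. Without the 96 h control library 4, 3 members passed, ranks 88, 21 and 6. Without control libraries 2 and 4, only rank 88 passed, and its adjusted p under all 12 alternatives lay between 0.0131 and 0.0444. Ranks 6, 21 and 49 had also risen in the controls between 6 and 96 h, and rank 88 had fallen in them. For each of these ranks, both comparisons use the same 96 h control libraries. With guanylurea, rank 88 changed by 0.005 on the log2 scale between 6 and 96 h. At 96 h rank 88 stood at -0.05 with metformin (95% interval -0.47 to 0.36) and at -0.07 with the mixture (-0.48 to 0.34), and neither passed. The difference between the treatments' effects on rank 88 over time did not pass (F test, adjusted p = 0.0977, edgeR).

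The F test for a treatment effect that differs between times found 1 member, rank 97, beside 2.44% of all genes. An unadjusted p under 0.05 in this F test was found for 21 members, beside 1830 of the 18145 genes. Members are not independent of each other, so this count describes and is no test. At 96 h the median of rank 97 was 2070 CPM in controls (361 to 14957) and 740 with guanylurea (96.3 to 1858), with 12 of 12 exposed libraries below the control median. At 6 h the medians were 866 CPM in controls (472 to 5352) and 1256 with guanylurea (559 to 20861). The F test gave an adjusted p of 0.0244 (edgeR). Guanylurea 6 h library 2, at 20861 CPM, and control 96 h library 4, at 14957 CPM, were the highest of their groups. Without the first the adjusted p was 0.128, and without the second 0.214, so the call rests on single libraries.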

How the data were processed

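Libraries were prepared from liver RNA by a stranded protocol for mRNA, per the labels. The authors deposited expected counts (estimated counts per gene and per transcript) for 191 libraries as whole numbers, not scaled for depth. bcl2fastq 1.8.4, Bowtie2 2.3.5 and RSEM 1.3.1 are named per the submitters' processing notes. Genome build, annotation and strand setting: not given in the sources used here.

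CPM was the count over the library total. The share and its tests used 100000 permutations within treatment or time, adjusted by Benjamini-Hochberg over 6 tests. Changes were fitted with edgeR 4.0.16 (R 4.3.3, filterByExpr with minimum count 10 and minimum total 15, TMM, robust quasi-likelihood) with a mean per group, and adjusted over all genes. DESeq2 1.42.0, limma 3.58.1 voom, other scalings, filters and left-out libraries were alternatives. Low agreement was a median correlation with the group lower than the overall median by over 5 times the median absolute deviation. Steps were tested on simulated data. Members named were those of ranks 1 to 10 and 96 to 105, the 3 highest and lowest in spread and in correlation, and up to 5 called members of smallest p per direction. For ranks 2 to 10 the lowest and highest group medians are given. The members and lists were chosen with earlier results of these data known.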

Additional observations from a re-analysis of the deposited data

Results flagged for a closer look

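The treatment effect on the member of rank 97 differed between collection times (F test on 9 differences, adjusted p = 0.0244, edgeR). It was above control with guanylurea at 6 h, by 1.35 on the log2 scale without passing (adjusted p = 0.492), and below it at 96 h by -2.21 (adjusted p = 0.00193). Without the guanylurea 6 h library 2, the 6 h difference was 0.01. Without the 96 h control library 4, the 96 h difference was -1.54 (adjusted p = 0.058).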

How the results depend on the processing

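Between 6 and 96 h, 26 to 43 members changed over all alternatives with 100 members, against 36, and metformin and the mixture gave 0 throughout. The controls gave 9 members with the replicate block, 9 without libraries of low agreement and 11 without 96 h control libraries 2 and 4, against 17. The median r was 0.01 between same-numbered libraries of different groups and -0.01 between others. Of these pairs, 262 of 1425 and 2479 of 15675 stood above 0.1. These values do not show whether a replicate number stands for a shared tank, date or batch, which the labels do not give. Guanylurea, times averaged, gave 0 leaving out 24 h, and 2 without libraries of low agreement or with limma voom, against 1. It gave 0 of the first 50 genes, a set that leaves out rank 61. At 96 h it gave 3 without libraries of low agreement and 1 without control libraries 2 and 4, and 3 to 7 leaving out single libraries, against 7. The F test for differing effects gave 0.5% of the first 200 genes, 2 members with no filter and 0 to 1 leaving out single libraries. It gave 0 with the replicate block, without libraries of low agreement, without control libraries 2 and 4 and with limma voom. It also gave 0 of the first 50 genes, a set that leaves out rank 97. The mean share was 47.0% for 50 genes, 63.9% for 200 and 47.7% without rank 1. The metformin difference turned to 0.26 points without rank 1, and the 96 h difference to -0.29 points for 200 genes. The median correlation was 0.25 with TMM and 0.25 with TMM without the members. The cause of these shifts was not tested. The 96 h, single-library and control-library checks at 96 h were chosen after seeing the data. Counting error was small for the members, whose lowest count in any library was 277.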
